A study of Mus musculus with 6 samples.

Results

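CD94, the NKG2 chains and related lectin receptors are encoded by Klrd1, Klrc1, Klrc2, Klrc3, Klrk1, Klre1, Klri1 and Klri2, which lie side by side on mouse chromosome 6. They were chosen by symbol, not by any measured value. All 8 of the 8 genes had a row among the 8520 genes measured in natural killer (NK) cells from mouse spleen. RNA was sequenced from CD3-negative, NK1.1-positive cells sorted from spleens of 20 C57BL/6Ncr mice aged 6 to 8 weeks, for which the labels give no treatment or genetic change. One population carried Ly49G and lacked Ly49I, the other carried Ly49I and lacked Ly49G, and below they are Ly49G+ and Ly49I+, each with 3 libraries. Antibody 4D11 marked Ly49G2, and the antibody for the other side of the sort binds Ly49C as well as Ly49I. The labels call the libraries biological replicates of cells from pooled spleens without saying how many mice fed each one, and the p-values therefore reflect only how much these libraries vary, which may be technical in part.

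As background, CD94 (Klrd1) has no signalling motif of use on its own and reaches the cell surface as a dimer with an NKG2 chain. With NKG2A (Klrc1), whose tail carries inhibitory ITIM motifs, the dimer inhibits the cell. With NKG2C (Klrc2) or NKG2E (Klrc3) it pairs with an adaptor protein and activates. These dimers bind Qa-1, a non-classical MHC class I molecule that presents leader peptides of other class I molecules, so they read class I levels in parallel with the Ly49 family. KLRE1 (Klre1) pairs in the same way with KLRI1, an inhibitory chain, or KLRI2, an activating chain. NKG2D (Klrk1) is a homodimer that binds stress-induced class I-like ligands and signals through the adaptors DAP10 and DAP12.

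Of the 8 receptor genes, 3 differed between the populations. Klrc1 RNA was 1.48-fold higher in Ly49I+ cells, and Klri1 and Klri2 RNA were 1.58-fold and 1.41-fold higher in Ly49G+ cells. Klrd1, Klrc2, Klrc3, Klrk1 and Klre1 did not pass the test. These calls come from limma's moderated linear model over the 8520 genes, two-sided, at a Benjamini-Hochberg adjusted p of 0.05, which called 3.59% of all genes (1.82% with the higher mean in Ly49G+ and 1.77% with it in Ly49I+). The values are counts per 1000000 reads of the library (CPM), and every difference is given as Ly49G+ minus Ly49I+ on the log2 scale. A receptor gene had 1057 to 62502 reads in a library, a depth at which counting error is small beside the variation among libraries. The median log2 difference of the receptors was 0.15, against -0.02 over all genes, and 7 of the 8 differences were above 0. The same 3 receptors were the ones whose groups did not overlap, a property of 25.8% of all genes. In bulk RNA a higher value can come from more cells that carry a transcript or from more RNA per cell, and these cannot be told apart.

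**Figure D1:**
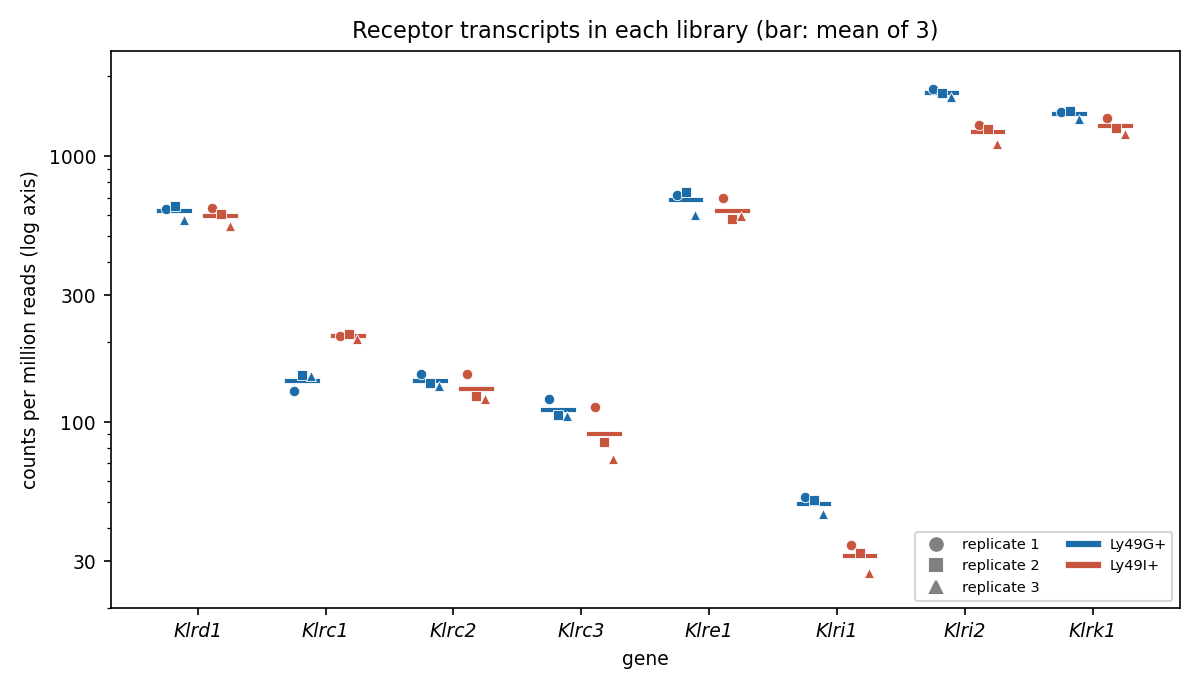
RNA of the 8 receptor genes in CPM (log axis) in each library, with Ly49G+ and Ly49I+ libraries side by side and a short line at each group mean. The Ly49I+ libraries lie above the Ly49G+ libraries for Klrc1 and below them for Klri1 and Klri2, and the groups overlap for the other 5 genes.

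The NKG2 genes are close copies, which bears on the values of Klrc1, Klrc2 and Klrc3. The coding sequences of Klrc2 and Klrc3 were identical at 88.1% of aligned columns, those of Klrc1 and Klrc2 at 81.0%, and those of Klrc1 and Klrc3 at 77.5%, from the GENCODE vM21 annotation on GRCm38. Klrc2 and Klrc3 shared 1 unbroken run of 202 coding bases, spread over 3 exons at chr6:129659379-129660486 in Klrc2 and chr6:129641571-129643218 in Klrc3, both on the minus strand. The matching stretch of Klrc1, chr6:129677815-129678823 on the minus strand, has 203 bases. The run is shown because a read inside it fits Klrc2 and Klrc3 alike, while the Klrc1 copy can be recognised. The labels describe read pairs, so such a read can be assigned only through a mate outside the run. Capitals in the Klrc1 line mark the 60 bases that differ from the other line, and both read 5′ to 3′ along the coding strand.
Klrc2 and Klrc3: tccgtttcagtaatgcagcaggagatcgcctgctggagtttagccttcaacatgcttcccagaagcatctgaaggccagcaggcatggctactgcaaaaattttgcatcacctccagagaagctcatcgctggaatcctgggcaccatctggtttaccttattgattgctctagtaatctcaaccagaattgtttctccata
Klrc1: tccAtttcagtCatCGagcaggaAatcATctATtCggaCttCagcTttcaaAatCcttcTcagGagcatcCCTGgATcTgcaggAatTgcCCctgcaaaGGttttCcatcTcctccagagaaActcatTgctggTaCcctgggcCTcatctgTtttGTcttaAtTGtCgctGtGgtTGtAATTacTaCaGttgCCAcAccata

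Over whole transcripts, 14.6% of the 100-base windows of Klrc1 also occurred in Klrc2 and none in any other gene. A window stands for a read without its mate. For Klrc2, 7.09% of windows were shared, 4.92% with Klrc1 and 2.17% with Klrc3, and for Klrc3 16.05% were shared, all with Klrc2. Klrd1, Klrk1, Klre1, Klri1 and Klri2 shared 0 windows with any other gene, so the resemblance of Klri1 and Klri2, identical at 75.9% of coding columns, never filled a 100-base window. The rule for counting reads that fit more than 1 gene, not given in the sources used here, leaves the split of RNA among Klrc1, Klrc2 and Klrc3 uncertain. No receptor gene overlapped another annotated gene on either strand.

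Klrd1, the shared CD94 subunit, overlapped between the populations. It stood at 635, 653 and 577 CPM in Ly49G+ libraries 1, 2 and 3 and at 641, 606 and 548 CPM in Ly49I+ libraries 1, 2 and 3. The 2 ranges overlap across most of their width. Its log2 difference was 0.06 ± 0.08 (SE, 3 libraries per group), with a 95% interval of -0.13 to 0.24 and a limma adjusted p of 0.731.

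Klrc1, the inhibitory NKG2A chain, was lower in Ly49G+ cells. It measured 131, 150 and 149 CPM in Ly49G+ libraries 1, 2 and 3 and 211, 215 and 206 CPM in the Ly49I+ libraries. All 3 Ly49I+ values lie above all 3 Ly49G+ values, and they span a narrower range. The log2 difference was -0.56 ± 0.08, with a 95% interval of -0.73 to -0.39 and a limma adjusted p of 0.00295, the 59th smallest p of the table. Setting libraries of the same replicate number against each other gave differences of -0.69, -0.52 and -0.47. Their shared direction adds nothing, because groups without overlap give it under any matching. The labels do not state that the numbers mark pairs.

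Klrc2, the activating NKG2C chain, did not pass the test. It measured 152, 140 and 136 CPM in Ly49G+ and 152, 126 and 122 CPM in Ly49I+ libraries, with replicate 1 the highest in each group. Klrc2 had a log2 difference of 0.10 ± 0.09, with a 95% interval of -0.11 to 0.31 and a limma adjusted p of 0.553.

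Klrc3, the NKG2E chain, had values of 122, 106 and 106 CPM in Ly49G+ and 114, 84.0 and 72.8 CPM in Ly49I+ libraries. Ly49I+ replicate 1 lay inside the Ly49G+ range, and the other Ly49I+ libraries lay below it. The log2 difference of 0.32 ± 0.14, with a 95% interval of 0.01 to 0.64, did not pass (limma adjusted p of 0.243). It passed with the replicate number as a block (limma adjusted p of 0.0264, with 11.7% of all genes called) and without Ly49I+ replicate 1 (0.50, limma adjusted p of 0.0127).

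The inhibitory and activating partners of CD94 were set against each other by the log2 ratio of Klrc1 to Klrc2 reads in each library, which is compared between populations only, since the genes differ in length. This ratio was -0.22, 0.09 and 0.12 in Ly49G+ and 0.47, 0.77 and 0.75 in Ly49I+ libraries. It was higher in every Ly49I+ library than in any Ly49G+ library, with group means of -0.00 ± 0.19 and 0.67 ± 0.17 (SD, n = 3), a difference of -0.67 (exact permutation test, two-sided, p = 0.1). With 3 libraries against 3 this test cannot go below 0.1, and adjustment over the 4 ratios examined left it at 0.1. The ratio of Klrc1 to Klrd1 was likewise separated, at -2.28, -2.12 and -1.96 in Ly49G+ and -1.60, -1.49 and -1.41 in Ly49I+ libraries, a difference of -0.62 (exact permutation p = 0.1).

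Among all reads of Klrc1, Klrc2 and Klrc3, those of Klrc1 made up 36.0 ± 3.3% in the Ly49G+ population and 48.8 ± 3.9% in the Ly49I+ population (SD, n = 3). Per kilobase of exon, the share of Klrc1 was 29.2 ± 3.1% and 42.6 ± 4.9%. The shares of reads ran from 32.3 to 38.0% in Ly49G+ and from 44.3 to 51.3% in Ly49I+ libraries, with no overlap. Per kilobase, the share of Klrc1 was below that of Klrc2 and Klrc3 together in all 6 libraries, at 25.6 to 31.0% in Ly49G+ and 37.1 to 46.4% in Ly49I+.

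**Figure D2:**
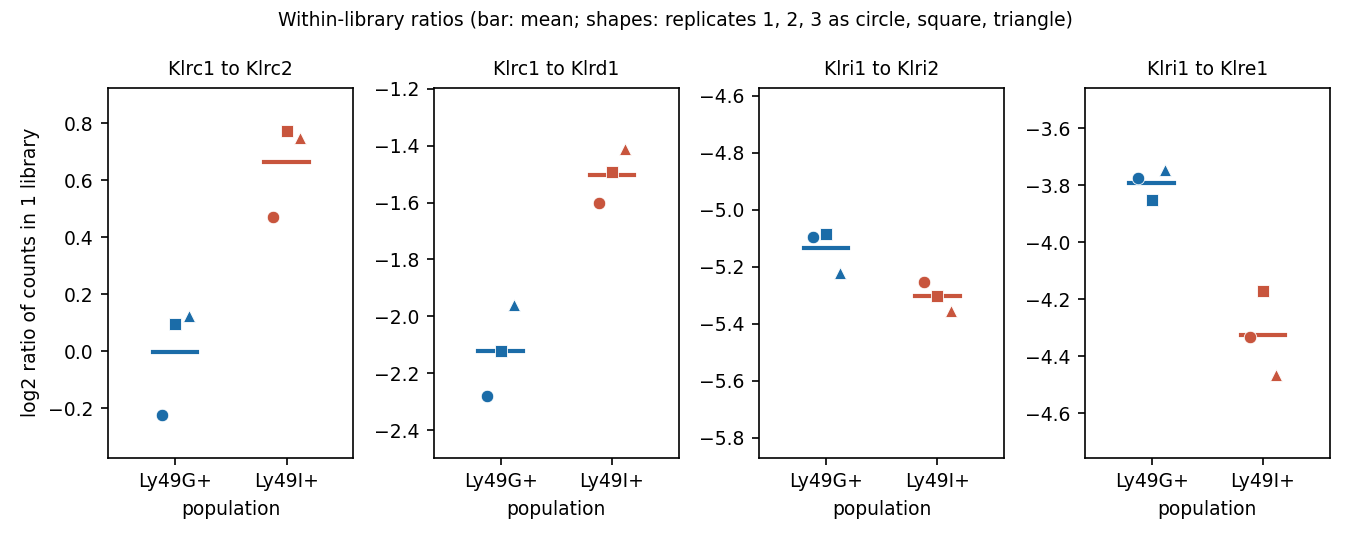
Log2 ratios between paired receptor chains in each library, for Ly49G+ and Ly49I+ cells, with each panel spanning the same log2 distance and a line at each group mean. The groups do not overlap in any panel, and the step between the means is -0.67 for Klrc1 to Klrc2, -0.62 for Klrc1 to Klrd1, 0.17 for Klri1 to Klri2 and 0.53 for Klri1 to Klre1.

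In the start regions compared, Klrc2 and Klrc3 were near copies. Klrc1 matched them at 42.0 to 45.1%, about as closely as it matched the other receptors, at 42.5 to 46.3%. RefSeq promoter entries on GRCm38.p6 were found for 6 of the 8 receptors, and not matched for Klrd1 and Klri2. The RefSeq gene of Klrc1 extends upstream of its listed start, to 129682852, and the region before that end was not compared. Where a receptor had another listed start, the most alike windows are given. In the 250 bases before the start, Klrc2 and Klrc3 were identical at 98.0% of aligned columns, 246 of 251, whereas Klrc1 matched Klrc2 at 45.1% and Klrc3 at 42.0%, beside 46.3% for Klri1, 44.1% for Klrk1 and 42.5% for Klre1. The 3 are printed to set the start region of Klrc1, which differed between the populations, beside those of Klrc2 and Klrc3, which did not pass the test. All lie on the minus strand and read 5′ to 3′, at chr6:129678974-129679223 for Klrc1, chr6:129660557-129660806 for Klrc2 and chr6:129643289-129643538 for Klrc3. Capitals mark the RUNX core TGTGGT or its reverse complement ACCACA. RUNX factors are transcription factors active in NK cells.
Klrc1: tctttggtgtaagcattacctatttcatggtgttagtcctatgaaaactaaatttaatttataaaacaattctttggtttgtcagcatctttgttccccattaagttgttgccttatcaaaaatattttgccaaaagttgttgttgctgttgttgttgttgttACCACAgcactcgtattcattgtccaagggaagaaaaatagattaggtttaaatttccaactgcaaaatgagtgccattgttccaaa
Klrc2: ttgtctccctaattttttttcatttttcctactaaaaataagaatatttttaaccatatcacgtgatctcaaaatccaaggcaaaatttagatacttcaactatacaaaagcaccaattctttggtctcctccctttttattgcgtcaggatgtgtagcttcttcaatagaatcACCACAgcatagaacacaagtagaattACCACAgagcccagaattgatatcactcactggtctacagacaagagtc
Klrc3: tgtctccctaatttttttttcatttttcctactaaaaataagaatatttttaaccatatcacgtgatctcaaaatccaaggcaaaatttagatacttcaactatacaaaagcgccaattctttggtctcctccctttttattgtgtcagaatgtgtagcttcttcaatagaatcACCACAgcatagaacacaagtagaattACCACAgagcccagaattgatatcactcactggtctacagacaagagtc

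The RUNX core occurred at 2 places in the Klrc2 and Klrc3 windows and at 1 place in that of Klrc1. On either strand, 14.0% of 32851 RefSeq promoters cut to the same length hold it. The Klri1 window held 0 matches and the Klrk1 window 1. Of the 2 starts listed for Klre1, 1 window held 1 match and the other 0. The T-box core GGTGTGA (in 3.3% of promoters) and the ETS core CCGGAA (in 3952 of the 32851 promoters), also sought on both strands, matched in none of these windows. A match describes the letters only, and no binding was measured.

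Klre1, the partner shared by KLRI1 and KLRI2, varied among libraries within each population. It measured 717, 735 and 603 CPM in Ly49G+ and 697, 580 and 599 CPM in Ly49I+ libraries. The ranges overlap, and the log2 difference was 0.13 ± 0.10, with a 95% interval of -0.09 to 0.35 (limma adjusted p of 0.475).

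Klri1, the inhibitory chain of the pair, was the least abundant receptor in reads and was higher in Ly49G+ cells. It measured 52.3, 50.9 and 44.9 CPM in Ly49G+ and 34.6, 32.2 and 27.1 CPM in Ly49I+ libraries. Every Ly49G+ value lies above every Ly49I+ value. The mean log2 difference came to 0.66 ± 0.11, with a 95% interval of 0.42 to 0.91 and a limma adjusted p of 0.00864.

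Klri2, the activating chain, was the most abundant receptor in reads in Ly49G+ cells and was also higher there. It measured 1788, 1730 and 1675 CPM in Ly49G+ and 1317, 1271 and 1110.0 CPM in Ly49I+ libraries. The lowest Ly49G+ library stands well clear of the highest Ly49I+ library. The log2 difference was 0.49 ± 0.08, with a 95% interval of 0.31 to 0.68 and a limma adjusted p of 0.00893.

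The calls of both Klri genes were lost without Ly49G+ replicate 1 or without Ly49G+ replicate 2. In these fits 155 and 94 of the 8520 genes passed, against 306 in the full fit, so the loss was not particular to them. Without Ly49G+ replicate 1 the limma adjusted p was 0.0544 for Klri1 and 0.0609 for Klri2, and without Ly49G+ replicate 2 it was 0.0721 and 0.0711. The log2 differences stayed close to the full values, at 0.62 and 0.47 without replicate 1 and at 0.64 and 0.49 without replicate 2. Both genes passed in each of the other 4 leave-outs, with limma adjusted p of 0.00401 to 0.0260 for Klri1 and 0.00450 to 0.0392 for Klri2. Klrc1 stayed past the threshold whichever library was left out.

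Both chains that pair with KLRE1 were thus higher in Ly49G+ cells, one inhibitory and one activating. The log2 ratio of Klri1 to Klri2 was -5.09, -5.09 and -5.22 in Ly49G+ and -5.25, -5.30 and -5.36 in Ly49I+ libraries, a difference of 0.17 (exact permutation p = 0.1). Per kilobase of exon, Klri1 made up 11.7 ± 0.5% of the RNA of the pair in Ly49G+ and 10.6 ± 0.3% in Ly49I+ cells. The ratio of Klri1 to Klre1 was -3.78, -3.85 and -3.75 in Ly49G+ and -4.33, -4.17 and -4.47 in Ly49I+ libraries, a difference of 0.53 (exact permutation p = 0.1). The step in the Klri1 to Klri2 ratio was thus smaller than the steps in the other 3 ratios.

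Klrk1, which encodes NKG2D, measured 1475, 1485 and 1384 CPM in Ly49G+ and 1398, 1276 and 1216 CPM in Ly49I+ libraries. Only Ly49I+ replicate 1 reached into the Ly49G+ range. Klrk1 had a log2 difference of 0.16 ± 0.08, with a 95% interval of -0.01 to 0.33 (limma adjusted p of 0.282).

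**Figure D3:**
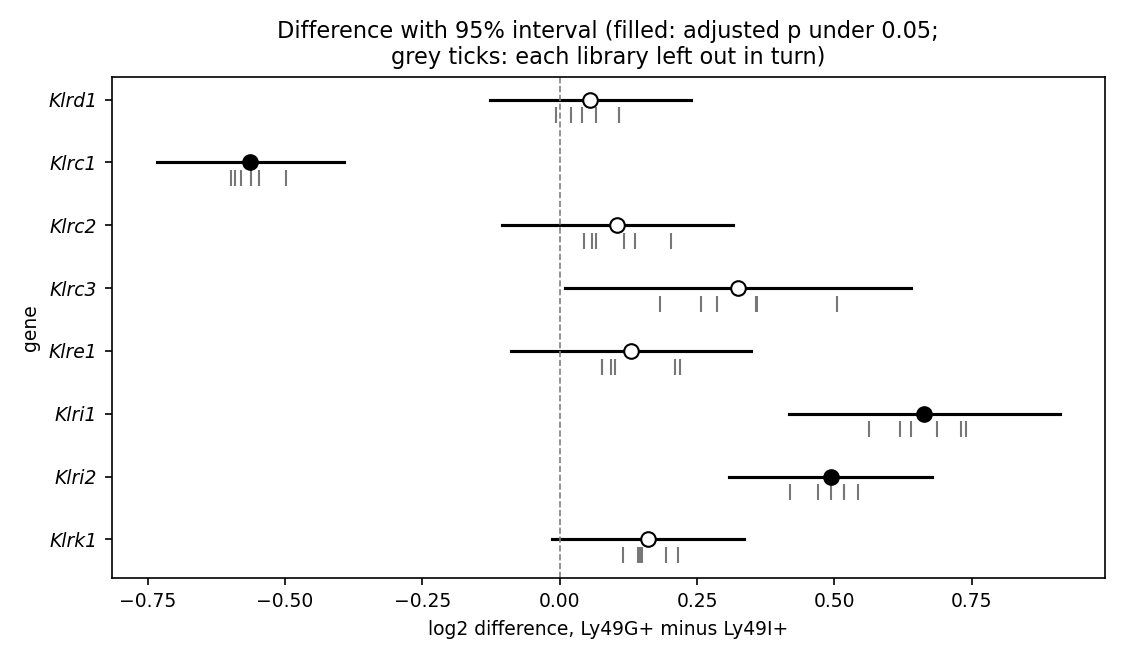
Log2 difference of Ly49G+ minus Ly49I+ for each receptor gene with its 95% interval from limma, filled where the adjusted p is under 0.05. Klrc1 lies at -0.56, Klri1 and Klri2 lie at 0.66 and 0.49, and the 5 open points lie between 0.06 and 0.32.

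Levels of different receptors can be set side by side only per kilobase of exon, here CPM divided by the length of all annotated exons of the gene. In Ly49G+ cells Klrd1 (485) and Klri2 (442) led, followed by Klrk1 (202), Klre1 (196), Klrc3 (151), Klrc1 (72.1), Klri1 (58.9) and Klrc2 (24.6). In Ly49I+ cells the order was Klrd1 (467), Klri2 (315), Klrk1 (181), Klre1 (179), Klrc3 (122), Klrc1 (106), Klri1 (37.3) and Klrc2 (22.98). The neighbours Klrd1 and Klri2 overlapped between libraries in Ly49G+ cells, Klrc3 and Klrc1 in Ly49I+ cells, and Klrk1 and Klre1 in both. All other neighbours in the order were separated.

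The order rests on annotated length. With the longest transcript in place of all exons, Klrk1 rose from 202 to 444 CPM per kilobase in Ly49G+ cells and from 181 to 398 in Ly49I+ cells, which put it level with Klri2 in the former and above it in the latter. Klrd1 then stood at 676 and 651, Klre1 at 285 and 260 and Klrc2 at 45.0 and 42.0. On either length CD94 RNA exceeded that of each single NKG2 partner in every library.

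The adaptor and signalling genes next to these receptors were, with 1 exception, not past the test. Of 32 listed genes, 30 were measured, 0 were higher in Ly49G+ and 1 was higher in Ly49I+, against the 3.59% called over the table, and the median log2 difference was -0.05. Hcst, which encodes the NKG2D adaptor DAP10, measured 21.6, 22.6 and 28.0 CPM in Ly49G+ and 23.8, 23.3 and 28.8 CPM in Ly49I+ libraries, a log2 difference of -0.07 ± 0.13. Tyrobp, which encodes DAP12, measured 625, 669 and 669 CPM in Ly49G+ and 606, 709 and 663 CPM in Ly49I+ libraries, a log2 difference of -0.01 ± 0.08. Both adaptors overlapped between the populations, with limma adjusted p of 0.775 and 0.965.

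The 1 adaptor gene that passed was Fcer1g, whose product is the ITAM-bearing FcR gamma chain. It measured 442, 458 and 480 CPM in Ly49G+ and 530, 594 and 621 CPM in Ly49I+ libraries, without overlap. The log2 difference was -0.34 ± 0.08, with a limma adjusted p of 0.0441. This call was lost without Ly49G+ replicate 1, 2 or 3 (limma adjusted p of 0.177, 0.201 and 0.101), without Ly49I+ replicate 2 or 3 (0.131 and 0.0753) and without the intensity trend (0.10025). The log2 differences in these fits ran from -0.37 to -0.29, close to the full value. With the replicate block, which called 11.7% of all genes, a second gene passed. This was Plcg2, which encodes phospholipase C gamma 2 (log2 difference -0.27, limma adjusted p of 0.0173 against 0.0720 unblocked).

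Of 14 genes listed as ligands, 4 were measured in the same NK cells, and 0 of the 4 passed. Among those without a row were the cadherin genes Cdh1, Cdh2 and Cdh4, which do not encode ligands of the receptors described. H2-T23, which encodes the Qa-1 heavy chain bound by CD94 dimers, measured 105, 109 and 101 CPM in Ly49G+ and 108, 105 and 147 CPM in Ly49I+ libraries (log2 difference -0.18 ± 0.12, limma adjusted p of 0.409). B2m, the light chain of class I molecules, measured 8292, 9126 and 8564 CPM in Ly49G+ and 6549, 8115 and 5669 CPM in Ly49I+ libraries. The B2m groups did not overlap, and its log2 difference of 0.37 ± 0.13 had a limma adjusted p of 0.148, or 0.0202 with the replicate block. That block called 11.7% of all genes. The NKG2D ligand genes were low, with H60b at 8.41 ± 2.36 and 10.9 ± 3.5 CPM and Ulbp1 at 18.3 ± 1.2 and 15.6 ± 0.6 CPM in Ly49G+ and Ly49I+ libraries (SD, n = 3, limma adjusted p of 0.452 and 0.307).

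The 8 receptor genes occupy 181120 bases of chromosome 6, from 129559365 to 129740484 on GRCm38.p6. From 500000 bases before this stretch to 500000 bases after it, RefSeq lists 49 genes, of which 19 were measured, the 8 receptors and 11 others. Klrc1 was the only called receptor with a negative difference, and it lies between Klrc2 and Klri1. Of the 11 other genes, 3 were higher in Ly49G+ (Klra6, Klra4 and Klra7) and 1 was higher in Ly49I+ (Klra9), all of the Ly49 family. Over all genes 3.59% were called, and Klra7 and Klra9 defined the sort. Klra6 had a log2 difference of 0.85 ± 0.12 (limma adjusted p of 0.00355) and Klra4 one of 0.83 ± 0.10 (0.00208).

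None of the remaining 7 genes passed the main test, and the replicate block, given beside it, called 11.7% of all genes. Cd69, an early activation marker, had a log2 difference of 0.45 ± 0.12 (limma adjusted p of 0.0745, and 0.00815 with the replicate block). Klra8, which encodes the activating receptor Ly49H, had one of 0.37 ± 0.11 (0.103, and 0.00517 with the block). Klrb1f, another lectin receptor, had one of 0.33 ± 0.08 (0.0521, and 0.00640 with the block). Klra5 and Clec2d stood at 0.26 ± 0.15 and 0.20 ± 0.07, and Gabarapl1 and the pseudogene Klra14-ps at -0.01 ± 0.16 and -0.02 ± 0.12, without passing in either fit.

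**Figure D4:**
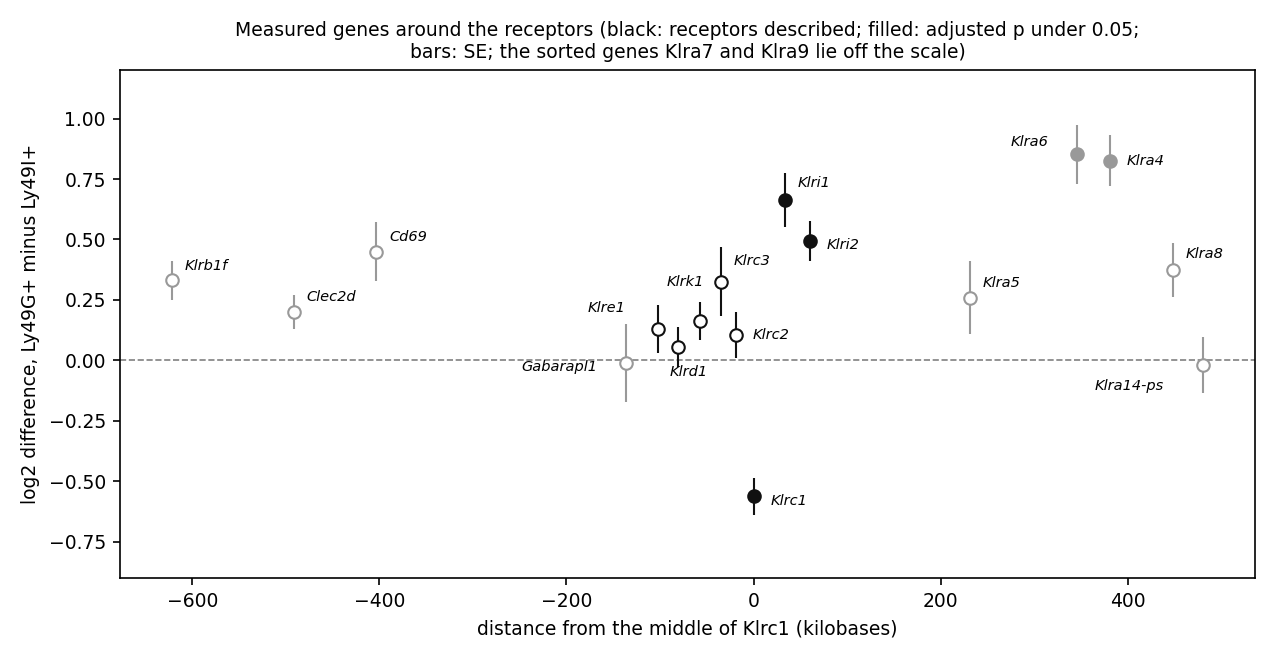
Log2 difference of Ly49G+ minus Ly49I+ with its SE for the measured genes around the receptors, against distance from the middle of Klrc1 in kilobases. The receptors described are black and other genes grey, filled points passed the test, and Klra7 and Klra9, which defined the sort, are off the scale. Klrc1 at -0.56 lies between Klrc2 at 0.10 and Klri1 at 0.66.

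Over all other C-type lectin NK receptor genes listed, 19 of 27 were measured, with a median log2 difference of 0.33. Of these, 6 were higher in Ly49G+ and 3 in Ly49I+, against 1.82% and 1.77% of all genes. With the replicate block 14 passed, 11 higher in Ly49G+ and 3 in Ly49I+, against 11.7% of all genes called. That list holds the genes on which the cells were sorted, so the calls of Klra7 and Klra9 were set by the sort. Besides Klra9 the genes higher in Ly49I+ were Klrg1 and Klrb1b.

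For each receptor that passed, the 3 genes with the most similar profile were found by the root mean square difference of centred log2 CPM over the 6 libraries. For Klrc1 they were Fcgr2b (0.05), Syt11 (0.08) and Rap1b (0.08), with log2 differences of -0.52, -0.44 and -0.42. Klri1 was closest to Gcnt1 (0.06), Plod2 (0.07) and Ifi44 (0.08), with differences of 0.68, 0.63 and 0.78. Klri2 was closest to Nmd3 (0.04), Top2a (0.05) and Mki67 (0.05), with differences of 0.44, 0.42 and 0.43. All but Ifi44 (limma adjusted p of 0.0526) passed the test. These are descriptions over 6 libraries, chosen from the whole table for their likeness.

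Libraries held 33599679 to 40892154 reads. Klra7 and Klra9 followed the labels. Klra7 (Ly49G) was at 974 ± 60 CPM in Ly49G+ and 11.2 ± 0.5 CPM in Ly49I+ libraries, and Klra9 (Ly49I) at 78.1 ± 5.3 and 1068 ± 110 CPM (SD, n = 3). Klra3 (Ly49C), whose product the antibody for Ly49I also binds, did not, at 248 ± 6 and 201 ± 16 CPM. Its mean was higher in Ly49G+, with a log2 difference of 0.30 and a limma adjusted p of 0.0604. With the replicate block, which called 11.7% of all genes, the limma adjusted p was 0.0109. All 11 NK markers listed, Ncr1 among them, were measured, with a summed level of 13715 to 13987 CPM in Ly49G+ and 14418 to 15143 CPM in Ly49I+ libraries. Of these, Eomes was higher in Ly49G+ (log2 difference 0.39 ± 0.07), and Prf1 and Tbx21 were higher in Ly49I+ (-0.49 ± 0.10 and -0.42 ± 0.10). The other 8 did not pass the test, which called 3.59% of all genes.

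Markers of other spleen cells also differed between the populations. Over all genes 3.59% were called, 1.82% with the higher mean in Ly49G+, and 11.7% with the replicate block. Of 13 T cell markers 8 were measured and 6 were higher in Ly49G+, with sums of 578 to 646 CPM in Ly49G+ and 402 to 442 CPM in Ly49I+ libraries. Cd3e, which the sort excludes at the surface, measured 9.26 to 18.5 CPM in Ly49G+ and 0.577 to 1.205 CPM in Ly49I+ libraries. The largest parts of the sums were Trdc (means of 220 CPM in Ly49G+ and 165 CPM in Ly49I+), Cd28 (134 and 82.6) and Trbc1 (131 and 113). These stood far above Cd3e in the Ly49I+ libraries too, so the sums cannot be read as T cell content. The listed T cell markers Cd4, Cd8a, Cd8b1, Cd5 and Cd6 had no row, so no level is available for them. Every measured gene had at least 10.01 CPM in its second-highest library, so Cd3e has a row only through Ly49G+ libraries. The count and sums of the T cell markers are therefore partly set by which genes have a row. Of 11 B cell markers 3 were measured and 1, Cd22, was higher in Ly49G+, with sums of 307 to 402 and 183 to 365 CPM, and 2 were higher there with the block. Klri1 and Klri2 were higher in the same libraries as the T cell markers, whose part in the result was not tested.

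Of 20 monocyte, macrophage and dendritic cell markers 10 were measured and 7 were higher in Ly49I+, against 1.77% of all genes. Klrc1 was higher in the same group. The median log2 difference over the 10 was -3.87. Every gene of the table had at least 10.01 CPM in its second-highest library. Markers such as Adgre4, at a mean of 0.82 CPM in Ly49G+ and 35.1 CPM in Ly49I+, have a row only through Ly49I+ libraries. The count, the median and the sums are therefore partly set by which genes have a row. The sums of the 10 markers were 1076 to 1192 CPM in Ly49G+ libraries and 1161, 2062 and 1208 CPM in Ly49I+ libraries 1, 2 and 3. Itgax, which NK cells also express, made up 1080 ± 42 and 901 ± 65 CPM of these sums (SD, n = 3). Without it the other 9 summed to 39.0, 50.9 and 71.6 CPM in Ly49G+ and 334, 1131 and 263 CPM in Ly49I+ libraries, so every Ly49I+ library stood above every Ly49G+ library. Klrc1 was 211, 215 and 206 CPM in those same Ly49I+ libraries. None of the measured marker genes is at 0 reads in any library. Without Ly49I+ replicate 2, where these markers were highest, the markers still stood higher in the other Ly49I+ libraries, and the log2 differences were -0.55 for Klrc1, 0.69 for Klri1 and 0.52 for Klri2, with limma adjusted p of 0.0144, 0.0260 and 0.0260. The part of these markers in the Klrc1 result was not tested.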

How the data were processed

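The deposited values are the authors' log2 CPM for 8520 genes in 6 libraries. They fit the voom formula of limma, with 0.5 added to each count and 1 to the library total before scaling to 1000000, and solving it gave whole reads for 100% of values within 0.001 read. The authors worked on build mm10 with limma, STAR 2.3.0 and CASAVA 1.8.2, per the submitters' processing notes, and the labels' protocols describe stranded total RNA libraries. The read counter, the annotation and the low-value filter, not given in the sources used here, could change the values. The smallest count of a listed gene was 8 reads, and genes outside the table held 1.43 to 1.71% of reads.

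Groups came from the sample labels. The deposited log2 values were tested with limma 3.58.1 in R 4.3.3 (linear model per gene, empirical Bayes with an intensity trend, two-sided, Benjamini-Hochberg over 8520 genes, 0.05), and adjusted p-values for genes come from it. The steps were run on simulated data, where recovery was required only for log2 differences larger than those of the receptors. Ratios within libraries were compared by exact permutation tests. Names were matched by gene number to RefSeq GRCm38.p6, and exon lengths and coding sequences were taken from GENCODE vM21. The other software was pandas 2.3.3, numpy 2.4.6, scipy 1.17.1 and matplotlib 3.10.9 under Python 3.11.15.

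The replicate numbers come from the labels. Deviations from the group means correlated at 0.371, 0.114 and 0.156 over genes between same-numbered libraries, and between differently numbered libraries at -0.495 to 0.359. Ly49G+ replicate 3 correlated more with Ly49I+ replicate 2 (0.359) than with its own number, and Ly49G+ replicate 2 about as much with Ly49I+ replicate 1 (0.115). Each same-numbered pair correlated above 0.1, but so did some differently numbered pairs. These correlations therefore cannot decide whether the numbers mark pairs, which the labels do not state. A fit with the number as a block was run as an alternative. Other alternatives were no trend, a robust prior, voom weights on recovered reads, median centring, quantile normalization, a minimum mean log2 CPM of 4, 1 CPM added, the longest transcript for lengths, and leaving out each library.

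The receptors and lists (adaptors, ligands, other lectin receptors, and NK, T cell, B cell and monocyte, macrophage and dendritic cell markers) were chosen with earlier results of these data known. The text names all receptors, the sorted Ly49 genes, Hcst and Tyrobp, adaptor genes that passed, measured ligand genes, measured genes within 500000 bases and the 3 most similar genes to each receptor that passed. Klrg1, Klrb1b, Cd3e, Trdc, Cd28, Trbc1, Cd22, Ncr1, Eomes, Prf1, Tbx21, Itgax and Zap70 were named after their values were seen.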

Additional observations from a re-analysis of the deposited data

How the results depend on the processing

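With the replicate block, 993 genes passed over the whole table against 306, and leaving out 1 library gave 94 to 644. The lowest count came without Ly49G+ replicate 2, and 155, 168 and 644 genes passed without Ly49G+ replicate 1, Ly49G+ replicate 3 and Ly49I+ replicate 1. Receptors that passed numbered 1 to 4 when 1 library was left out, with Klrc1 alone left without Ly49G+ replicate 1 or 2. The replicate block added Klrc3 and changed no other receptor's call. Klrc1 passed in all 14 alternatives, with log2 differences of -0.60 to -0.50 and limma adjusted p of 0.000185 to 0.0246. Klrd1, which never passed, turned to -0.00635 without Ly49I+ replicate 3 and ran up to 0.11 when another library was left out.

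Adaptor genes that passed numbered 2 with the replicate block, 0 with no intensity trend and 0 to 2 when 1 library was left out. Without Ly49I+ replicate 3 the 1 that passed was Zap70 (0.48, limma adjusted p of 0.0247), not Fcer1g. The 4 ratios kept their sign and their side of the threshold in all 8 alternatives. Their differences without 1 library ran from -0.76 to -0.56 for Klrc1 to Klrc2, -0.70 to -0.54 for Klrc1 to Klrd1, 0.14 to 0.21 for Klri1 to Klri2 and 0.46 to 0.61 for Klri1 to Klre1. No ratio could pass in this design, and pairing the libraries by number gave an exact sign-flip p of 0.25. The causes of these shifts were not tested.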
